A study of Mus musculus with 4 samples.

Results

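A set of 9 genes of homologous recombination and of the Fanconi anemia pathway was followed in neural stem/progenitor cells (NSPCs): Brca1, Bard1, Brca2, Palb2, Rad51c, Xrcc2, Fanca, Fancd2 and Blm. The genes were chosen by name, and a probe belonged to the set when the array design gave it one of their names. This gave these 9 genes 14 probes on an array of 55681 probes. Of these probes 13 passed the filter on dim signals, and all 9 genes were among the 19678 genes tested.

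Homologous recombination mends a broken chromosome by copying the sister chromatid, and it therefore operates mainly in cells that are replicating their DNA. BRCA1 with BARD1 prepares the break, PALB2 brings in BRCA2, RAD51C and XRCC2 act with BRCA2 in the steps that follow, and BLM untangles the joined molecules. The Fanconi pathway, with FANCA in its core complex and FANCD2 as the protein it ubiquitinates, removes crosslinks between DNA strands and protects stalled replication forks. Cells deficient in several of these genes are sensitive to PARP inhibitors, and neural progenitors, which divide rapidly in the embryo, depend on this repair.

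The study asked how NSPCs respond to PJ34, an inhibitor of poly(ADP-ribose) polymerases, and what that response owes to p53. The methods give Slc:ICR mouse embryos at embryonic day 13.5 as the source of NSPCs, which grew with EGF and FGF. There were 2 arrays from wild-type and 2 from Trp53-/- cells, the latter derived from a line obtained as heterozygous mice. The methods do not name the strain of that line, so a strain difference cannot be told apart from genotype. On each array the RNA of cells given 20 μM PJ34 carried Cy5, and that of untreated cells of the same genotype carried Cy3. No array had the dyes exchanged, so treatment and dye cannot be told apart within an array. The log2 ratio used throughout is that of the PJ34 signal over the control signal, after background correction and loess normalization within the array. A gene was called when limma gave both p and Storey's q below 0.05, and it was read from its brightest probe.

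Between 21505 and 24540 probes per array were well above background in the control channel and between 26081 and 27156 in the PJ34 channel. The untreated Trp53 level was 8.28 and 8.51 (log2) in wild-type and 7.56 and 7.82 in Trp53-/- cells, which was lower on both Trp53-/- arrays but not called (log2 difference -0.71, SE 0.19, q = 0.0564). Cdkn1a, the cell cycle inhibitor p21 and a p53 target, rose on both wild-type arrays (log2 ratios 1.84 and 1.23) and fell on both Trp53-/- arrays (-0.48 and -0.74). All 11 NSPC markers tested were well above background in untreated cells on every array. Trp53-/- replicate 2 stood apart: the Y-linked Eif2s3y and Ddx3y had log2 ratios of 4.22 and 3.12 there, and the X-inactivation transcript Xist had -3.08, whereas on the other 3 arrays these genes lay between -0.20 and 0.84. Its treated and untreated RNA therefore differed in sex-linked transcripts, and counts of calls in Trp53-/- cells and between the genotypes are also given without it. The 4 arrays lay on 4 slides scanned on 4 days, so array, slide and scan cannot be told apart, and the number of arrays limits the precision.

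The probe sequences are shown first because the array reads each gene through 60 bases, and several results below depend on which ones. The first 30 bases of the probes on which those results turn are given 5′ to 3′ as the deposited files hold them, in lower case, with a run of alternating T and G in capitals. Bard1 was read at 3 places of its transcript (probe starting at bases 1876, 4595 and 5203), Xrcc2 at 2 places (913 and 2745), and Brca2 and Rad51c at 1 place each.
Bard1 at 1876: aaatgctcagcaaacttgagacagttctta
Bard1 at 4595: cctcctctcggtttcccttctttcctacta
Bard1 at 5203: ccatttagggatactccagtctctgatcgc
Xrcc2 at 913: gttgatctctatcatcaaaaaggcttttag
Xrcc2 at 2745: tcggggtatcatgctccccagttaactctt
Brca2 at 10440: tggttgtcatcgactgatttaaaaagcttt
Rad51c at 3034: TGTGTGTGTGTGTGTGgtggtggtggtgtt

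In the mm9 assembly that the array files use, the 3 Bard1 probes lie at chr1:71094217-71094276, chr1:71074902-71074961 and chr1:71074294-71074353 on the minus strand, in the order above. The Xrcc2 probes lie at chr5:25197876-25197935 and chr5:25196044-25196103 (minus strand), the Brca2 probe at chr5:151372225-151372284 (plus strand) and the Rad51c probe at chr11:87190997-87191056 (minus strand). The Brca1 probe maps to chr11:101359283-101363319, a span of 4037 bases for a 60-base sequence, so it crosses a splice junction. The remaining probes are those of Blm (chr7:87600243-87600302), Fancd2 (chr6:113541170-113541229), Palb2 (chr7:129256813-129256872 and chr7:129251027-129251086) and Fanca (chr8:125792210-125792269 and chr8:125826045-125826104). The second Fanca probe was not well above background in either channel of any array and did not pass the filter. An exon annotation of mm9 was not used here.

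In wild-type NSPCs, PJ34 was followed by lower levels of 4 of the 9 genes (Bard1, Xrcc2, Fancd2 and Blm) and by a higher signal of 1 (Rad51c), none of them by 2-fold. Over all genes tested, 11.4% were called lower and 13.7% higher, and 0.503% were called with a change above 2-fold. The median log2 ratio of the 9 genes was -0.20, against 0.03 for all genes, and 7 of the 9 were below 0 on both arrays, as were 30.8% of all genes. The RNA came from whole cultures, so fewer cells expressing a gene and less RNA per cell cannot be told apart.

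Among the BRCA1 complex genes, Bard1, the partner that BRCA1 needs for stability and for its ubiquitin ligase activity, had log2 ratios of -0.37 and -0.43 on the wild-type arrays. It was called lower at -0.40 (SE 0.10, 0.756-fold, q = 0.00929). Brca1 itself had log2 ratios of -0.06 and 0.06, with a mean of 0.00 (SE 0.09, 95% interval -0.20 to 0.20, q = 0.506). Brca1 was dim on this array: on wild-type replicate 2 neither channel was well above background, so its wild-type value rests on 1 measured array.

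Palb2, the bridge between BRCA1 and BRCA2, had log2 ratios of -0.17 and -0.18 and was not called (q = 0.107). Brca2, whose protein binds single-stranded DNA at the break, had -0.20 and -0.03 and was not called either (mean -0.11, SE 0.09, q = 0.232). Both genes were below 0 on both wild-type arrays.

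Xrcc2, which works in one complex with other recombination proteins, was lower on both wild-type arrays, at -0.30 and -0.29 (SE 0.09, 0.814-fold, q = 0.0216). Rad51c, whose protein takes part in more than one of these complexes, went the other way, at 0.71 and 0.64 (mean 0.67, SE 0.09, 1.60-fold, q = 0.00047). Its probe is the one with the repeat run shown above.

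Of the Fanconi genes, Fancd2 was lower at -0.27 and -0.28 (SE 0.09, 0.827-fold, q = 0.0367). Fanca had -0.18 and -0.22 and was not called (mean -0.20, SE 0.11, q = 0.122). Blm, the RecQ helicase that dissolves double Holliday junctions, was lower at -0.30 and -0.19 (SE 0.09, 0.842-fold, q = 0.0445).

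Of these 5 calls, those of Fancd2 and Blm were nearest to the threshold and that of Rad51c farthest from it. Without wild-type replicate 1 only Bard1 and Rad51c were called, where 8.08% of all genes were called higher and 6.11% lower. Without wild-type replicate 2 only Rad51c was, where 8.05% were called higher and 6.81% lower. The direction also depends on the zero point: centring each array on its median in place of loess moved the median over all genes to 0.46 in wild-type, with 11730 genes called higher and 83 lower in place of 2700 and 2251. Against that median the log2 ratios were -0.28 for Bard1, -0.27 for Xrcc2, -0.54 for Fancd2 and -0.14 for Blm, whereas the ratios as such turned positive for Bard1, Xrcc2 and Blm.

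**Figure D1:**
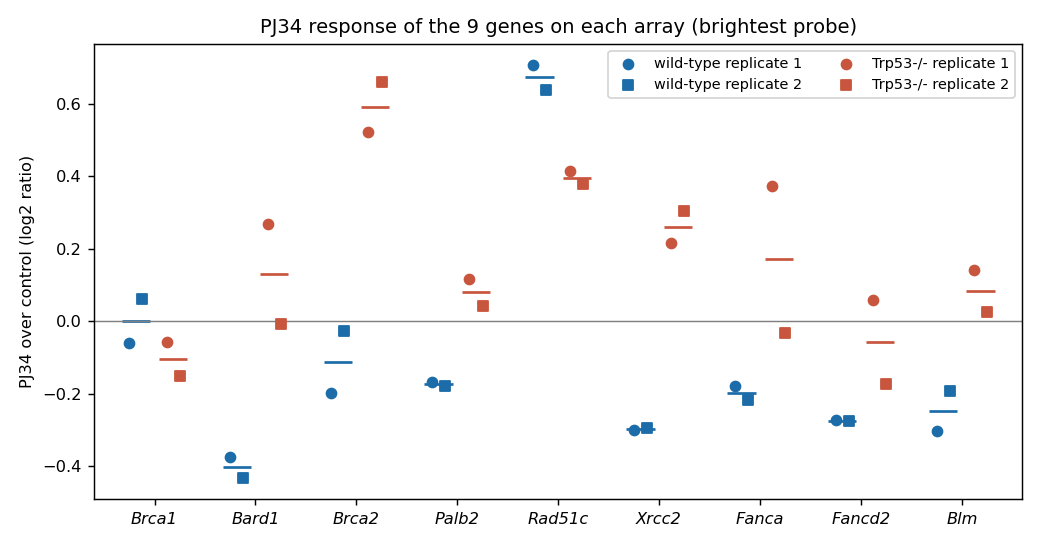
Log2 ratio of PJ34 over control (vertical axis) for each of the 9 genes, with 1 point per array, wild-type in blue and Trp53-/- in red; circles are replicate 1, squares replicate 2 and short lines the mean of the 2 arrays. Brca2 and Xrcc2 lie below 0 on both wild-type arrays and above 0 on both Trp53-/- arrays, and Rad51c lies above 0 on all 4.

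In Trp53-/- NSPCs none of the 9 genes was called lower, where 10.6% of all genes were, and 3 were called higher (Brca2, Rad51c and Xrcc2), where 12.8% were. None of the 9 was lower at an unadjusted p below 0.05 in limma, where 13.5% of all genes were, and none was called lower with Benjamini-Hochberg adjustment. None changed by 2-fold, where 0.371% of all genes did. The median log2 ratio was 0.13, against 0.03 for all genes, and 5 of the 9 were above 0 on both arrays, as were 41.2% of all genes. That median rested on single arrays: it was 0.22 without Trp53-/- replicate 2 and 0.03 without replicate 1, where the median of all genes was 0.03 and 0.04.

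Brca2 rose the most, with log2 ratios of 0.52 and 0.66 (mean 0.59, SE 0.09, 1.51-fold, q = 0.00177). Rad51c had 0.41 and 0.38 (SE 0.09, 1.32-fold, q = 0.00721) and Xrcc2 had 0.22 and 0.30 (SE 0.09, 1.20-fold, q = 0.036). On both arrays these 3 genes lay above 0.

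The other 6 genes were not called. Fanca had 0.37 and -0.03, Bard1 0.27 and -0.01, and Fancd2 0.06 and -0.17, so in each of them the 2 arrays lay on opposite sides of 0. Blm (0.14 and 0.03) and Palb2 (0.12 and 0.04) were slightly above 0 on both arrays and Brca1 (-0.06 and -0.15) slightly below. Their means ran from -0.10 to 0.17, with SEs of 0.09 to 0.11. Without Trp53-/- replicate 2, the array with discordant sex-linked transcripts, only Brca2 was called, where 3.13% of all genes were called higher and 3.49% lower. It was again only Brca2 without Trp53-/- replicate 1, where 5.82% were called higher and 5.80% lower. Median centring moved the median over all genes to 0.64, with 13400 genes called higher and 88 lower in place of 2521 and 2089.

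The difference between the genotypes was tested directly, as the log2 ratio in wild-type minus that in Trp53-/- cells. For 7 of the 9 genes every wild-type array was lower than every Trp53-/- array, which held for 23.8% of all genes. The exceptions were Rad51c, higher on both wild-type arrays, and Brca1, whose arrays overlapped. The difference was called for 2 of the 9, both lower in wild-type, where 0.478% of all genes were called lower and 1.31% higher.

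Brca2 differed by -0.70 (SE 0.13, q = 0.0249) and Xrcc2 by -0.56 (SE 0.12, q = 0.0481). Bard1 came next at -0.53 (SE 0.14) and missed the threshold (q = 0.0746). The differences of Fanca (-0.37), Blm (-0.33), Palb2 (-0.25) and Fancd2 (-0.22) had q values from 0.192 to 0.368, and those of Rad51c (0.28, q = 0.251) and Brca1 (0.11, q = 0.563) were positive.

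Both calls depended on single arrays and on the background correction. Without Trp53-/- replicate 2 neither was called (Brca2 -0.63, q = 0.0961, and Xrcc2 -0.51, q = 0.173). Leaving out either wild-type array or Trp53-/- replicate 1 left Brca2 called and Xrcc2 not, and with a smaller background offset of 16 neither was called, at differences of -0.74 and -0.62.

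**Figure D2:**
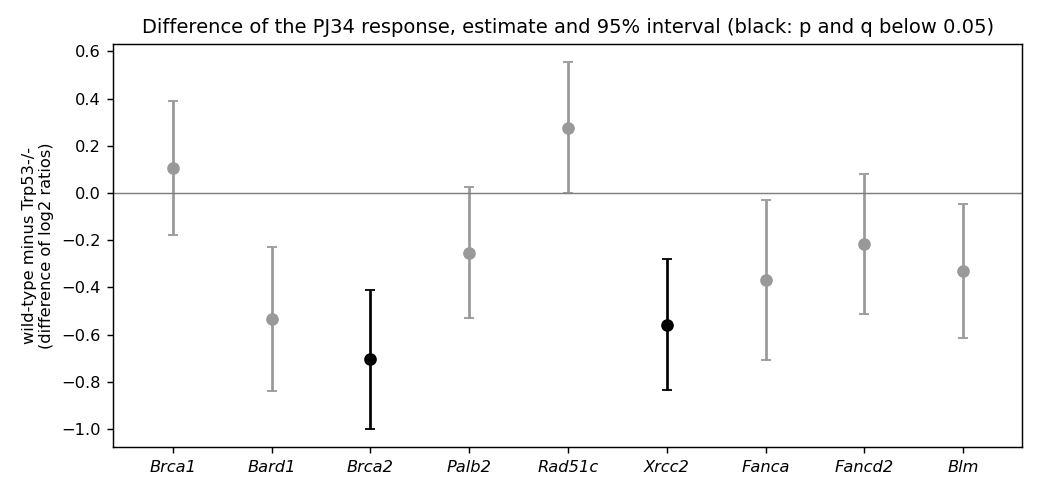
Difference of the PJ34 response (log2 ratio in wild-type minus that in Trp53-/- cells, vertical axis) for the 9 genes, with limma's estimate as a point and its 95% interval as a bar; black marks p and q below 0.05. Brca2 at -0.70 and Xrcc2 at -0.56 are the 2 black points.

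Genes with several probes did not always give 1 answer. Bard1 was called lower in wild-type at base 5203 only: on the same arrays the probe at base 4595 gave 0.06 and 0.05 (q = 0.381 with each probe tested on its own), and the probe at base 1876 had 0.05 and -0.22 (q = 0.326). The mean over the 3 probes was -0.14 and was not called. In untreated cells the probe at base 4595 was lower in Trp53-/- (7.62 and 7.30) than in wild-type cells (8.24 and 8.28), by -0.80 (q = 0.0463), while at base 5203 the difference was 0.02 (q = 0.562).

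The 2 Xrcc2 probes were both lower in wild-type cells. The dimmer one, at base 913, had log2 ratios of -0.21 and -0.54 (mean -0.38, SE 0.10, q = 0.0158) against -0.30 and -0.29 for the brightest. In Trp53-/- cells it had 0.10 and 0.06 and was not called (q = 0.312), so the rise in these cells was called at base 2745 only. With each probe tested on its own, the difference between the genotypes was called at neither. It was -0.46 at base 913 (q = 0.134) and -0.56 at base 2745 (q = 0.0553). The dimmer Palb2 probe had -0.31 and 0.00 in wild-type and -0.12 and 0.10 in Trp53-/- cells, and on wild-type replicate 2 it was not well above background in either channel.

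**Figure D3:**
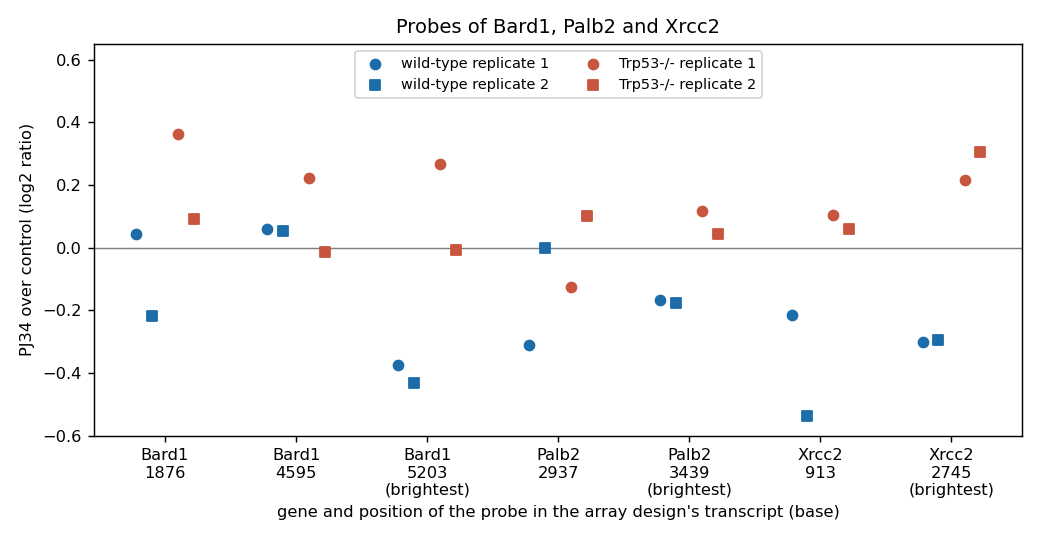
Log2 ratio of PJ34 over control (vertical axis) at each probe of Bard1, Palb2 and Xrcc2, ordered by the base of the transcript at which the probe starts, with 1 point per array (blue wild-type, red Trp53-/-, circle replicate 1, square replicate 2). At Bard1 the wild-type points lie at -0.37 and -0.43 for base 5203 but at 0.06 and 0.05 for base 4595.

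The Rad51c signal was compared with other probes that carry the same repeat, a comparison chosen after its values were seen. A run of at least 16 bases of alternating T and G was present in 75 probes, Rad51c included, and all 75 were above 0 on each of the 4 arrays, where 53.1% to 55.8% of all probes kept were. Their median log2 ratios were 0.73 and 0.64 on the wild-type arrays and 0.52 and 0.42 on the Trp53-/- arrays, next to 0.71, 0.64, 0.41 and 0.38 for Rad51c. In wild-type their means ran from 0.38 to 0.77, and 26 of the 75 lay below Rad51c. In Trp53-/- cells their means ran from 0.27 to 0.65, and 4 of the 75 lay below Rad51c.

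The 34 probes kept that carry the complementary run of C and A had median log2 ratios of 0.28 in wild-type and 0.08 in Trp53-/- cells, and all lay below Rad51c in both. The repeat thus moved with the Rad51c result, and its part in that result was not tested. Rad51c had no other probe. Without it, the 9 genes held none called higher in wild-type and 2 called higher in Trp53-/- cells. The only other gene of the lists compared below whose brightest probe held the run was Ung, of the S phase list, at 0.68 in wild-type and 0.47 in Trp53-/- cells.

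In untreated cells no genotype difference of the 9 genes, read from their brightest probes, passed the test. The difference at another Bard1 probe is given above. None of the 9 was called between untreated Trp53-/- and untreated wild-type cells, where 7.36% of all genes were, and none had an unadjusted p below 0.05 in limma, where 23.2% of all genes did, or was called by a separate-channel model of all 8 channels. The differences ran from -0.41 for Blm to 0.29 for Fanca, with SEs of 0.17 to 0.32. The widest 95% interval, that of Rad51c, ran from -1.03 to 0.54, so a difference within that range could not be resolved with these arrays.

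The spread was widest in the wild-type pair. Wild-type replicate 1 was above replicate 2 in 8 of the 9 genes, by up to 0.92 (log2), whereas the Trp53-/- arrays differed by 0.02 to 0.35. Brca2 had untreated levels of 9.74 and 9.02 in wild-type and 9.08 and 9.12 in Trp53-/- cells, Blm 10.03 and 9.47 against 9.33 and 9.35, and Palb2 7.58 and 6.83 against 6.86 and 6.94. The genotypes overlapped in 7 of the 9 genes. The 2 that did not overlap, where 56.1% of all genes did not, were Blm, lower on both Trp53-/- arrays, and Fanca (9.93 and 9.65 against 10.11 and 10.06), higher on both.

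The choice of wild-type array decided the call. Without wild-type replicate 1, Brca1, Fanca and Fancd2 were called higher in untreated Trp53-/- cells (0.46, 0.43 and 0.42), where 17.2% of all genes were called higher and 20.1% lower. Without wild-type replicate 2, Brca2, Palb2, Rad51c and Blm were called lower (-0.64, -0.68, -0.71 and -0.70), where 22.8% of all genes were called lower and 22.7% higher. Counted over both directions together, the shares of the 9 genes called were near those of all genes. By direction they were not, because each fit called members in a single direction and all genes in both. With either Trp53-/- array left out, no gene of the whole array was called, and none of the 9 had an unadjusted p below 0.05 in limma. The single wild-type array left is assumed in these fits to vary like the Trp53-/- arrays.

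The cultures also differed in other markers. On the linear scale, the summed untreated level of 6 oligodendrocyte markers was 2175 and 3537 in wild-type and 9325 and 10001 in Trp53-/- cells. Of the 6, 3 were called higher and 1 had a negative difference (-0.41). Over all genes 3.71% were called higher and 3.65% lower in this comparison. Of the 7 neuron markers 2 were called higher and 1, Snap25, lower (-0.73), and of the 4 astrocyte markers tested 3 were called higher. Of the 11 NSPC markers Msi1 (-0.96) was called lower in untreated Trp53-/- cells and none higher, with a median difference of -0.01. The endothelial marker Kdr (-1.34), 1 of 2 tested, and the Y-linked Eif2s3y (-2.59) and Ddx3y (-2.05) were also called lower there. Most markers of microglia, endothelial cells and fibroblasts (8 of 13 listed) did not pass the filter. The part of these markers in the members' values was not tested.

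**Figure D4:**
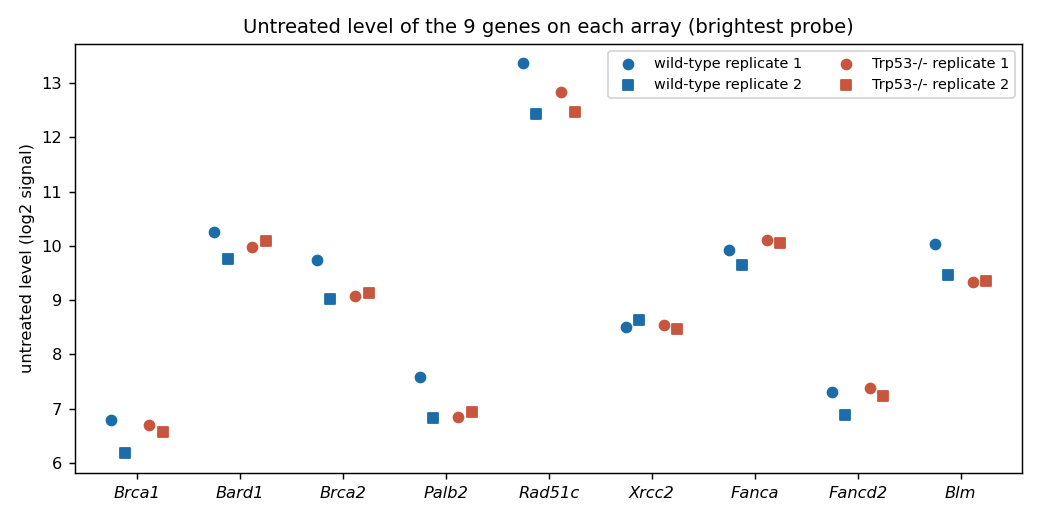
Untreated level (log2 signal of the control channel, vertical axis) of the 9 genes on each array, wild-type in blue and Trp53-/- in red, circles replicate 1 and squares replicate 2. Levels of different genes come from different probes and are not comparable. The 2 wild-type points of Brca2, at 9.74 and 9.02, enclose both Trp53-/- points.

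The rest of the recombination machinery was read from a list of 41 further genes, of which 40 were tested. In wild-type cells 14 were called lower and 2 higher, with a median log2 ratio of -0.18. In Trp53-/- cells 1 was called lower and 12 higher, with a median of 0.16. The 22 tested of 23 further Fanconi genes gave 7 lower and 1 higher in wild-type (median -0.08) and 1 lower and 3 higher in Trp53-/- cells (median 0.06). The medians of all genes were 0.03 in both. In wild-type 11.4% of all genes were called lower and 13.7% higher, and in Trp53-/- cells 10.6% and 12.8%, so the Fanconi list in Trp53-/- cells held about the share called higher that all genes did. Without Trp53-/- replicate 2 the recombination list gave 3 higher and 0 lower in these cells (median 0.18; 11 of 40 at an unadjusted p below 0.05 in limma) and the Fanconi list 0 higher and 1 lower (median 0.10; 4 of 22). Leaving out Trp53-/- replicate 1 in its place gave 3 higher and 1 lower (median 0.10) in the recombination list and 0 higher and 1 lower (median 0.03; 4 of 22) in the Fanconi list. In wild-type cells the recombination list gave 8 lower without wild-type replicate 1 and 6 without replicate 2, and the Fanconi list 5 and 3.

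The lowest in wild-type were Cenps, which encodes a histone-fold subunit of the FANCM complex, Rad54l, a DNA-dependent motor of recombination, and Dna2, a nuclease that resects breaks. Cenps had log2 ratios of -0.84 and -0.83 (q = 0.000384), Rad54l -0.70 and -0.58 (q = 0.00101) and Dna2 -0.62 and -0.56 (q = 0.00102). The highest were Swi5 (0.39 and 0.49), a recombination cofactor, the translesion polymerase gene Rev1 (mean 0.38) and the nuclease scaffold Slx4 (mean 0.27).

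In Trp53-/- cells the highest were Rmi1, which works with BLM and had 0.45 and 0.63 (q = 0.00229), Topbp1, an activator of the kinase ATR, with 0.51 and 0.36 (q = 0.00586), and the helicase gene Recql with 0.25 and 0.62 (q = 0.0128). Fance (-0.61 and -0.69, q = 0.0011) and the nuclease gene Mus81 (-0.30 and -0.29, q = 0.0216) were the ones called lower, and both were called lower in wild-type too. Without Trp53-/- replicate 2, Topbp1 and Fance were still called and Rmi1, Recql and Mus81 were not. Rmi1, Recql and Fance were called without replicate 1, and Topbp1 and Mus81 were not.

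The difference between the genotypes was called for Exo1, a resection nuclease, at -0.62 (SE 0.13, q = 0.0364) and for Eme1, the partner of MUS81, at -0.61 (SE 0.14, q = 0.0487), and for none of the Fanconi list, in which 8 of 22 had an unadjusted p below 0.05 in limma, 7 of them with a negative difference. The median difference was -0.31 over the recombination list and -0.15 over the Fanconi list, against -0.01 for all genes. Neither Exo1 nor Eme1 was called without Trp53-/- replicate 2 (-0.70, q = 0.0628, and -0.59, q = 0.141) or without replicate 1 (-0.54, q = 0.122, and -0.64, q = 0.0854). Eme1 had -0.19 and -0.47 in wild-type and 0.25 and 0.31 in Trp53-/- cells. Between untreated cells none of the recombination list was called (3 of 40 at an unadjusted p below 0.05), and of the Fanconi list Fance (1.24, q = 0.0185) and Ercc1 (1.52, q = 0.0241) were called higher and Fancl (-0.81, q = 0.0324) lower in Trp53-/- cells. Of these 3, none was called with either Trp53-/- array left out, where no gene was.

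Other lists moved at the same time. In wild-type cells 26 of 34 S phase genes and 27 of 30 G2 and M phase genes were called lower (medians -0.40 and -0.65). In Trp53-/- cells 8 S phase genes were called higher (median 0.11) and none lower, and none was lower at an unadjusted p below 0.05 in limma either, while 15 of 30 G2 and M phase genes were lower (median -0.34). Without Trp53-/- replicate 2 these counts were 4 S phase genes higher (median 0.18) and 1 G2 and M phase gene lower (median -0.14), and without replicate 1 they were 3 (median 0.08) and 18 (median -0.54). Without wild-type replicate 2 the wild-type counts were 15 S phase and 19 G2 and M phase genes lower. The S phase medians had the same signs as those of the 9 genes, with a median difference between genotypes of -0.55 against -0.33 (-0.61 against -0.39 without Trp53-/- replicate 2), and the part of cell cycle distribution in the members' values was not tested. Of 13 end joining genes, which serve the repair route that needs no sister chromatid, none was called in wild-type. Over all genes 25.2% were called there in one direction or the other. At the looser limit of an unadjusted p below 0.05 in limma, 4 of these 13 passed in wild-type. In Trp53-/- cells 3 were called higher and 2 lower, where 12.8% and 10.6% of all genes were. With either Trp53-/- array left out, 1 end joining gene was called higher in Trp53-/- cells and none lower, and 4 of 13 had an unadjusted p below 0.05 in limma.

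**Figure D5:**
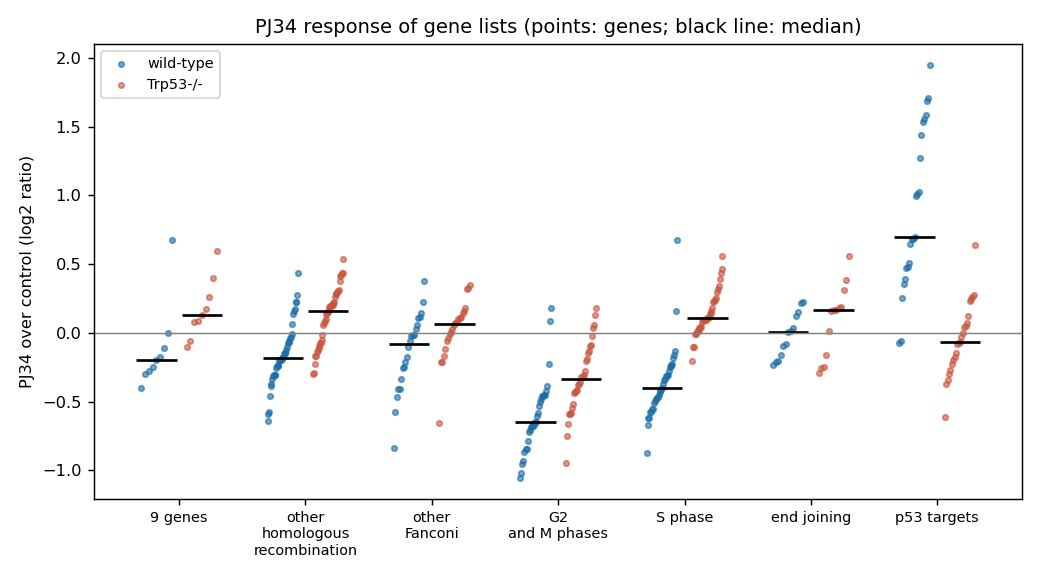
Log2 ratio of PJ34 over control (vertical axis) for the genes of each list, wild-type in blue and Trp53-/- in red; points are genes (mean of 2 arrays) and black lines list medians. The 9 genes (medians -0.20 and 0.13), the other recombination genes (-0.18 and 0.16) and the S phase genes (-0.40 and 0.11) have medians below 0 in wild-type and above 0 in Trp53-/- cells, with single genes on either side of 0.

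As a description of the pattern, the centred levels of the 9 genes were averaged over the 8 channels. The mean profile ran from -0.34 (PJ34, wild-type replicate 2) to 0.28 (control, wild-type replicate 1). Among all genes tested, Pds5a, a cohesin regulator, lay nearest to it (root mean square difference 0.03 log2 units), followed by Zfp280d (0.04) and 1 probe without a gene name, BC023263 and Rflnb (0.05 each). Of the 9 genes themselves, Brca1 lay nearest (0.11) and Rad51c farthest (0.41), so each of the 9 differed from their common mean by more than these 5 genes did.

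Promoter sequences were examined because several of these genes are known targets of E2F factors, which switch on genes for DNA synthesis. RefSeq promoters of GRCm38.p6, from 250 bases before to 50 after a start site, were given for 7 of the 9 genes, not for Xrcc2 and Fancd2. A match to the E2F motif (TTNNCGC with C or G at each N, on either strand) was found in 5 of these 7 genes (Bard1, Blm, Brca1, Brca2 and Rad51c) and in 10.9% of all 27025 genes with promoters. The CCAAT motif was found in 4 of 7 (41.1% of all genes) and TTTGAA, the cell cycle homology element, in 1 of 7 (20.2%). No match of one motif was counted for another. The stretches of 60 bases before the start site that hold an E2F match are shown for the genes that had one there, with the match in capitals.
Bard1: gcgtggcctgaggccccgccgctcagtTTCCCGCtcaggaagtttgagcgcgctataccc
Blm: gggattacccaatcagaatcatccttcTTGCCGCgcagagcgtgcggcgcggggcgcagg
Brca2: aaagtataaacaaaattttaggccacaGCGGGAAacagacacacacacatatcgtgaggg
Rad51c: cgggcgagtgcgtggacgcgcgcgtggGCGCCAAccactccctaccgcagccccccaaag

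These stretches lie at chr1:71103148-71103207 (minus strand), chr7:80535108-80535167 (minus strand), chr5:150522426-150522485 (plus strand) and chr11:87404990-87405049 (minus strand) of GRCm38.p6. The matches shown begin 208, 142, 168 and 68 bases before the start site, and that of Brca1 begins 21 bases after it. Rad51c also had a match beginning 5 bases before the same start site. In another Rad51c promoter a match began 12 bases after the start site. Genes with a match included 2 that were called lower in wild-type (Bard1 and Blm), 1 that was not called there but rose in Trp53-/- cells (Brca2), Rad51c, called higher in both genotypes, and Brca1, which was called in neither. Fanca and Palb2, without a match in this window, were not called in either genotype.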

How the data were processed

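Total RNA was hybridized by the authors to 2-colour Agilent arrays, and the deposited scanner files hold spot intensity values per channel and the log10 ratio of the scanner software, Agilent Feature Extraction 10.7.3.1 per the labels. The deposited series table has 4 unnamed sample columns, which were not used. Mean and local background signals were corrected with normexp (offset 50) and normalized by loess within arrays, which gave log2 ratios from the deposited intensities. Control levels were taken after Aquantile normalization. The filter on dim signals asked of a probe that, in either genotype, both arrays had 1 or more channels well above background, which left 27036 probes. No spot was saturated.

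A linear model over all 4 arrays was fitted with limma 3.58.1 in R 4.3.3, with 2 residual degrees of freedom before moderation and Storey's q over 19678 genes, after the study's methods. The threshold was 0.05 for p and q, and 2-fold changes were counted besides. Replicates are independent RNA preparations per the study's methods. Values of 2 replicates are given singly, and SEs come from limma. The fit was checked on simulated data. Gene symbols were updated from accessions through RefSeq (GRCm38.p6) for 48.9% of probes. The members, lists and tests were chosen with earlier results of these data known. Named list genes are, per comparison, the 3 highest and 3 lowest of those called. Alternatives covered background correction, normalization, filters, variance trend, adjustment, probe summary, a replicate block and leaving out each array.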

Additional observations from a re-analysis of the deposited data

Results flagged for a closer look

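Brca2 was singled out because its PJ34 response differed between the genotypes in the direct limma test, at a log2 difference (wild-type minus Trp53-/-) of -0.70 with q = 0.0249. Every wild-type array lay below every Trp53-/- array, as in 23.8% of all genes. That order comes from the same values that the test used. Xrcc2 was singled out for the same reason, at -0.56 with q = 0.0481, again with every wild-type array below every Trp53-/- array. With each probe tested on its own in limma, neither Xrcc2 probe was called. Base 2745 gave -0.56 (q = 0.0553) and base 913 gave -0.46 (q = 0.134). Neither the Brca2 nor the Xrcc2 call held with a background offset of 16, the scanner's log ratios or median centring. Both calls also depended on single arrays, as given above. With 2 arrays per genotype no group was large enough to test for an outlying sample.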

How the results depend on the processing

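Leaving out 1 array at a time gave 1 to 4 called genes in wild-type (5 with all arrays), 1 to 3 in Trp53-/- cells (3), 0 to 1 for the difference between genotypes (2) and 0 to 4 for untreated levels (0). The upper ends of the ranges within a single genotype came from leaving out an array of the other genotype. In wild-type, 3 genes were called with the scanner's log ratios, with median centring, without the filter, with Benjamini-Hochberg adjustment and with the replicate block. In Trp53-/- cells the scanner's log ratios gave 1 and median centring 6. The difference was called for 0 genes with offset 16, the scanner's log ratios and median centring, and for 1 without background correction, with Benjamini-Hochberg adjustment, with the mean of probes and with every probe tested. Over all genes the scanner's log ratios called 0 differences, offset 16 called 39 higher and 2 lower, and the main setting 257 and 94. Untreated levels gave 1 with every probe tested (Bard1). Median centring turned the wild-type ratio of Brca2 (0.44), Bard1 (0.18), Xrcc2 (0.20), Fanca (0.38) and Blm (0.33) positive. With it the median over all genes moved to 0.46 in wild-type. The size of the move differed between genes, and its cause was not tested. Of 626 single-gene values under alternatives, 563 kept their call and, where called, their direction, 47 lost and 11 gained a call, and the 5 above reversed. Same-numbered arrays deviated with a correlation of -0.18 for ratios and 0.08 for control levels. The labels do not say whether the numbers pair the samples, and with 2 arrays per genotype these correlations cannot decide it. The replicate block gave 2 calls in Trp53-/- cells, 2 for the difference and 0 for untreated levels, and a crossed pairing, added after seeing the data, gave 5, 3, 3 and 0 in the order above. The low signal of Brca1 over background limits its values. Leaving out each array for the other gene lists was added after seeing the data.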
